A study of Mus musculus with 10 samples.

Results

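The 39 genes of the 4 mouse Hox clusters were read out of a table of 43346 genes as every row whose symbol was Hox, a cluster letter from a to d and a number. They comprised 11 *Hoxa*, 10 *Hoxb*, 9 *Hoxc* and 9 *Hoxd* genes, and 38 of them are reported here, each with its own row of raw counts in all 10 libraries. RNA came from O9-1 cells, a tetraploid mouse line of the cranial neural crest, with 4 biologically independent wildtype samples, 3 Kat5 knockout (ko) clones and 3 Ep400 ko clones. Kat5 is the acetyltransferase and Ep400 the ATPase of the Tip60/Ep400 chromatin remodeling complex.

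Both genes had been inactivated by CRISPR/Cas9 with 1 guide each, and every ko library came from a clone grown from a single sorted cell. Clones are called Kat5/1 to Kat5/3 and Ep400/1 to Ep400/3 by their number in the sample labels. All alleles carry frameshifts in the Kat5 ko clones and in Ep400/1, whereas Ep400/2 and Ep400/3 kept some alleles with short in-frame deletions in the ATP binding site. All 10 libraries share the cell line and the culture on Matrigel in medium conditioned by inactivated mouse fibroblasts. Clonal isolation was part of the ko groups only and cannot be told apart from the loss of either gene.

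Hox genes code for homeodomain transcription factors that give cells along the body axis their positional identity. Within each cluster, the genes lie in the order in which they are used from head to tail, so that low-numbered genes act in the hindbrain and the pharyngeal arches and high-numbered genes in the trunk, the limbs and the tail. Neural crest cells that migrate from the midbrain and the most anterior hindbrain into the face are known for having no Hox expression, and *Hoxa2*, which specifies the second pharyngeal arch, is the best studied of the genes that are off there. Polycomb complexes keep Hox clusters closed, Trithorax complexes keep them open, and retinoic acid opens them from the low-numbered end.

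Promoters of 4 genes are shown because the level of their genes is what the comparisons are about. *Hoxa2* stands for second arch identity, *Hoxd1* for a Hox promoter rich in CpG, *Hoxd8* for the Hox gene with most reads, and *Dlx2*, a homeobox gene of the facial crest outside the clusters, for a promoter that was active. Each window holds 300 bases from 250 before to 50 after the transcription start in RefSeq on GRCm38.p6, in the direction of transcription, with CpG in capitals. The windows lie at chr6:52164782-52165081 on the minus strand (*Hoxa2*), chr2:74762730-74763029 and chr2:74704365-74704664 on the plus strand (*Hoxd1* and *Hoxd8*) and chr2:71546705-71547004 on the minus strand (*Dlx2*).
Hoxa2: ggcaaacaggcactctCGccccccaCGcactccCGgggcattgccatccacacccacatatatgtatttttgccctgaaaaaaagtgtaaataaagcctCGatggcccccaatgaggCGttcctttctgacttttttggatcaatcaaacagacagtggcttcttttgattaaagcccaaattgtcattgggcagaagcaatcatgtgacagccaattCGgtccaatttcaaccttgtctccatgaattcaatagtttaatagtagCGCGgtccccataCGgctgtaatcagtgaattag
Hoxd1: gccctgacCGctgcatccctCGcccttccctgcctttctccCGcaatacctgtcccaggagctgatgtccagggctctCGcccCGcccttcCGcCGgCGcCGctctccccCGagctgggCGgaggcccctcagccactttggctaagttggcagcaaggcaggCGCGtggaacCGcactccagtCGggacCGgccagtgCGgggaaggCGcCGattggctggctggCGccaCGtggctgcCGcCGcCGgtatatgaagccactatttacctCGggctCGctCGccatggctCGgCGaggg
Hoxd8: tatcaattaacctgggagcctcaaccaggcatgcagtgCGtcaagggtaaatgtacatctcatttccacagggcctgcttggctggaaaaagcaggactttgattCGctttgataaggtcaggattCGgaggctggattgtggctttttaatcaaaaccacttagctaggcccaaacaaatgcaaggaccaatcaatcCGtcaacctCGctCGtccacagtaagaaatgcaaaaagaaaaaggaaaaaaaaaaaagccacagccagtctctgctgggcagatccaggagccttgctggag
Dlx2: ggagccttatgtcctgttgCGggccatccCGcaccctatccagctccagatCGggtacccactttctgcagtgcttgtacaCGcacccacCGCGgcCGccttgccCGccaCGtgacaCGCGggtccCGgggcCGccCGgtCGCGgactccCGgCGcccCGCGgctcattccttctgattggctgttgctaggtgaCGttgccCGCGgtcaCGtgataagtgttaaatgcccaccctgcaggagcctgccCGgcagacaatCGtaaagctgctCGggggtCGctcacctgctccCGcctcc

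Between 30968945 and 48301792 reads per library were counted on genes, so that a level of 1 CPM, with each library scaled to 1000000 counts, equalled 30.97 to 48.30 reads. The targeted genes followed their labels. *Kat5* was at 54.3 ± 4.00 CPM (SD, n = 4) in wildtype samples against 19.98 ± 4.16 (SD, n = 3) in Kat5 ko clones. *Ep400* was at 161 ± 4.08 CPM (SD, n = 4) in wildtype samples against 60.4 ± 4.31 (SD, n = 3) in Ep400 ko clones. Of 14 cranial neural crest markers, 9 reached 1 CPM in every wildtype library, among them *Twist1*, *Tfap2a*, *Sox9* and *Prrx1*, while *Sox10* and *Foxd3* were at 0 in all libraries. The 4 pluripotency markers summed to at most 0.0586 CPM in any library and the 6 paraxial and trunk mesoderm markers to between 0.340 and 4.12. Markers of blood summed to at most 7.59 CPM, and those of neuroepithelium and neurons to between 70.4 and 204. Markers of epithelium summed to 1.64 to 4.72 CPM in wildtype samples against 0.290 to 0.828 in Kat5 ko and 0.534 to 1.00 in Ep400 ko clones, and markers of endothelium to 0.879 to 1.63 against 0.183 to 0.579 and 0.146 to 0.298. The number of genes past the test depended on single libraries. It was 67 between Kat5 ko and wildtype, but 2651 without Kat5/1 and 1 without wildtype sample 1.

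A gene was called silent in a group with less than 0.1 CPM in every library, and expressed with at least 1 CPM in every library. All 38 Hox genes reported were silent in wildtype cells and none was expressed. The 4 wildtype libraries together held 2 reads on them out of 147976530. Among all 43346 genes, 27140 (62.6%) were silent and 11240 expressed in wildtype cells by the same limits, and among 21474 protein-coding genes 8125 (37.8%) were silent. By their reported genes, all 4 clusters were thus silent in wildtype O9-1 cells.

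Neither ko opened a cluster. Of 380 values (38 genes in 10 libraries), 370 were 0, and the highest was 0.291 CPM. None of the 38 Hox genes reached 1 CPM in any ko clone. In total, 31 Hox genes had no read in any library and the other 7 shared 22 reads, of which 2 were from wildtype libraries, 0 from Kat5 ko clones and 20 from Ep400 ko clones.

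**Figure D1:**
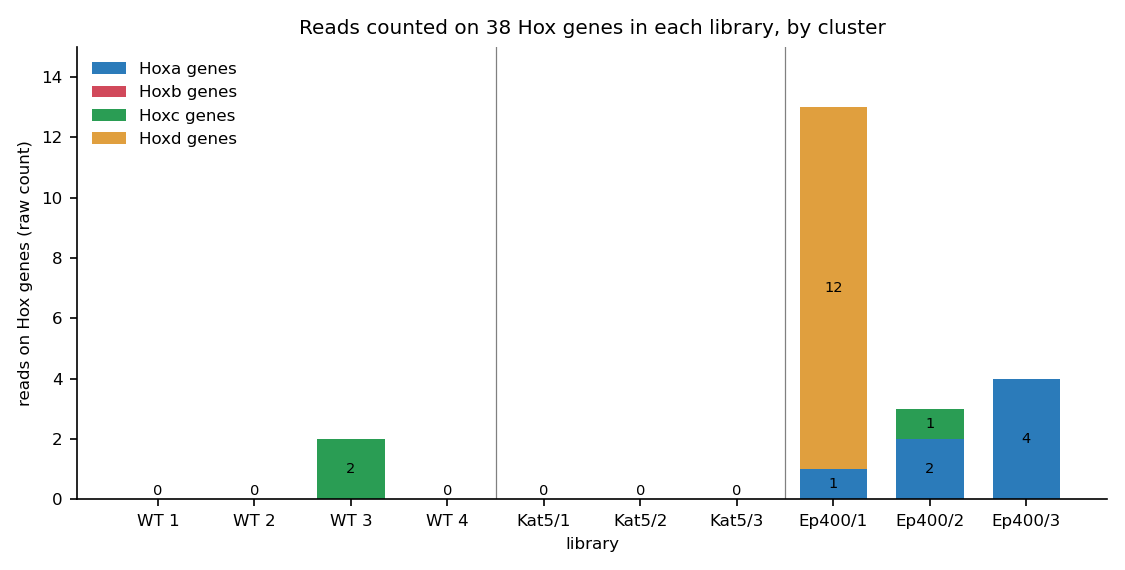
Raw read counts summed over 38 Hox genes in each of the 10 libraries (bars: 4 wildtype, 3 Kat5 ko and 3 Ep400 ko), with the share of each cluster in colour and its number of reads inside the bar. Reads are seen in wildtype sample 3 and in the 3 Ep400 ko clones, most of all in Ep400/1 with 13, and *Hoxb* genes have none.

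The reads were unevenly spread over libraries. Wildtype samples 1, 2 and 4 had 0 reads on these Hox genes and sample 3 had 2. The Kat5 ko clones had 0 each, whereas Ep400/1 had 13, Ep400/2 had 3 and Ep400/3 had 4. Each Ep400 ko clone therefore had more Hox reads than any wildtype library, at 0.0910 to 0.315 CPM summed over 38 genes against 0 to 0.0525. Because 3 reads per library correspond to 0.0621 to 0.0969 CPM, most of these sums lie at or near the detection limit, and without Ep400/1 the remaining Ep400 ko clones had 7 reads together. Intervals and limits of this kind cover counting error only. In bulk RNA, a few cells with a Hox transcript cannot be told apart from a trace in every cell.

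The HoxA cluster lies on the minus strand of chromosome 6. Its 10 reported genes held 7 reads, all from Ep400 ko clones, and 6 of them had no read in any library. *Hoxa7* had 1 read each in Ep400/1 and Ep400/3. *Hoxa9* and *Hoxa13*, which act in limb and tail, had 1 read each in Ep400/2 and Ep400/3, and *Hoxa10* had 1 in Ep400/3. No reported *Hoxa* value came above the silent limit. *Hoxa2* was among the genes with no read, so that its promoter shown above belongs to a gene with 0 reads throughout.

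The HoxB cluster, from 96194316 to 96368256 on the plus strand of chromosome 11, had no read on a Hox gene. All 10 *Hoxb* genes, among them *Hoxb1* of rhombomere 4 and *Hoxb2*, were at 0 in each of the 10 libraries. A count of 0 among 376266970 reads allows up to 0.00797 CPM per gene over all libraries. Over the groups, it allows 0.0203 CPM in wildtype, 0.0256 in Kat5 ko and 0.0270 in Ep400 ko libraries.

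The HoxC cluster (chromosome 15, plus strand, 102921103 to 103036852) held 3 reads. *Hoxc4* had 2 in wildtype sample 3 and 0 elsewhere, and *Hoxc13*, which is known for its role in hair and nails, had 1 in Ep400/2. The other 7 *Hoxc* genes were at 0 in all libraries. Kat5 ko clones had no *Hoxc* read.

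The HoxD cluster (chromosome 2, plus strand, 74668310 to 74765142) held 12 reads, all of them on *Hoxd8* in clone Ep400/1. This is the highest count of any Hox gene and equals 0.291 CPM. *Hoxd8* was at 0 in Ep400/2, Ep400/3, the 3 Kat5 ko clones and the 4 wildtype samples, so that the groups share the value 0 and 1 clone decides the difference. Its neighbors *Hoxd4* and *Hoxd9* were at 0 in Ep400/1 as elsewhere. As no molecular identifiers are mentioned in the methods, the 12 reads need not stem from as many molecules.

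By position, the 7 anterior Hox genes reported (paralog groups 1 to 3), which are used in hindbrain and arches, had 0 reads. The 15 central genes (groups 4 to 8) had 16 reads, with 2 from wildtype samples, 0 from Kat5 ko and 14 from Ep400 ko clones. The 16 posterior genes (groups 9 to 13) had 6 reads, all from Ep400/2 and Ep400/3. Group 13 had reads in 2 clusters, with 2 reads for *Hoxa13* and 1 for *Hoxc13*.

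By the limits above, all 38 Hox genes reported were silent in Kat5 ko clones and 37 in Ep400 ko clones. The exception was *Hoxd8*, low or variable because of a single clone. An opened gene was silent in every wildtype library and had at least 1 CPM in every clone. None of 38 Hox genes was opened in either ko, and none reached 1 CPM in 1 or more clones. Among the 27140 genes that were silent in wildtype cells, 0 (0%) were opened in the Kat5 ko and 9 (0.0332%) in the Ep400 ko, and 13 (0.0479%) and 93 (0.343%) reached 1 CPM in at least 1 clone. With so low a background, 0 of 38 does not set Hox genes apart from other silent genes. No Hox gene could be closed, as none was expressed in wildtype cells.

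Hox genes did not enter the tests, for which edgeR's quasi-likelihood test was run on all genes with sufficient counts and p-values were adjusted by Benjamini-Hochberg. Of 13434 genes tested for Kat5 ko against wildtype, 67 (0.499%) passed at an adjusted p of 0.05 or less, 17 (0.127%) as higher and 50 (0.372%) as lower. Between Ep400 ko and wildtype, 1917 of 13836 genes passed (13.9%), 1120 (8.09%) as higher and 797 (5.76%) as lower. Between Ep400 ko and Kat5 ko, 994 of 13587 genes passed (7.32%), 590 (4.34%) as higher and 404 (2.97%) as lower. In each comparison, 0 Hox genes had enough counts for the test and 0 were called. The 2 comparisons with wildtype share the same control samples.

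Without the filter, edgeR fitted those Hox genes that had a read in the libraries compared, namely 1 reported gene for Kat5 ko against wildtype, 7 for Ep400 ko against wildtype and 6 for Ep400 ko against Kat5 ko. None passed after adjustment. The lowest adjusted p by edgeR was 0.170, for *Hoxd8* between Ep400 ko and wildtype. This was also the only Hox gene with an unadjusted p below 0.05, with 0 such genes in the other comparisons. DESeq2 called 0 Hox genes in all comparisons, with 0 at an unadjusted p below 0.05 and gave no adjusted p for them because of their low counts.

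How far a gene can be counted depends on exon sequence that it does not share with another annotated gene. In GENCODE M21, every reported Hox gene had at least 874 such bases on its strand (median 2445.5, highest 5532), and 37 of 38 had at least 1000. The smallest was that of *Hoxa6*. *Hoxd3*, *Hoxd4* and *Hoxa2* overlap other annotated genes on the same strand but kept 1578, 1406 and 1508 free bases. Under this annotation, none of them lacked exon sequence of its own. Whether the authors counted by strand is not given in the sources used here, so that reads of a Hox gene and of an antisense transcript cannot be told apart where they overlap.

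The non-coding genes of the clusters had few reads. All 10 that were looked up were silent in wildtype cells, and *Hottip*, *Hotair*, *Haglr*, *Hoxb3os*, *Hoxb5os*, *Hoxaas3* and *Hoxa11os* had no read in any library. *Hotairm1*, a non-coding gene of HoxA, had 8 reads in Kat5/1, 1 in Ep400/1 and 0 elsewhere. *Hoxaas2*, also in HoxA, had 3 reads in Kat5/1, 1 in wildtype sample 1 and 0 elsewhere. Both were thus highest in Kat5/1, whereas *Hoxd3os1* had its 1 read in Ep400/3.

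Within the cluster boundaries, the table listed 45 further genes, and 40 of them were at 0 in all libraries. Reads on the others were few with the exception of *Gm11539*, a processed pseudogene inside HoxB that was singled out after its values had been seen. It had 14 to 58 reads per library and 1.16 ± 0.34 CPM (SD, n = 4) in wildtype samples, 0.890 ± 0.624 (SD, n = 3) in Kat5 ko and 1.28 ± 0.39 (SD, n = 3) in Ep400 ko clones. These ranges overlap between all groups. Reads of a processed pseudogene can be shared with its parent gene, so that its level is uncertain.

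Expressed genes lay within 300 kb of all 4 clusters, though not directly beside them. Within 300 kb of the cluster ends lay 26 protein-coding genes, of which 16 were expressed in wildtype cells, 9 silent and 1 low or variable. The same number of 16 was expressed in Kat5 ko and in Ep400 ko clones. The nearest expressed protein-coding genes were *Skap2* at 143 kb and *Hibadh* at 285 kb from HoxA, *Atp5g1* at 119 kb from HoxB, *Smug1* at 116 kb and *Calcoco1* at 199 kb from HoxC, and *Mtx2* at 60.7 kb and *Lnp* at 88.9 kb from HoxD. On the side of the low-numbered *Hoxb* genes, the nearest protein-coding gene was *Skap1*, with 0 to 14 reads per library. Relative to exon length, expressed flanking genes were at 2.40 (*Lnp*) to 336 (*Hnrnpa1*) CPM per kb in wildtype cells.

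The homeobox genes next to the clusters were silent like the Hox genes. *Evx1*, at 52.6 kb from HoxA, and *Evx2*, at 8.75 kb from HoxD, had 0 reads in all libraries. The same applied to the ParaHox genes *Gsx1*, *Gsx2* and *Pdx1* and to *Mnx1*, which lie elsewhere in the genome. *Ttll6*, at 28.9 kb from the high-numbered end of HoxB, had 9 reads in Ep400/3 and at most 2 in any other library.

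**Figure D2:**
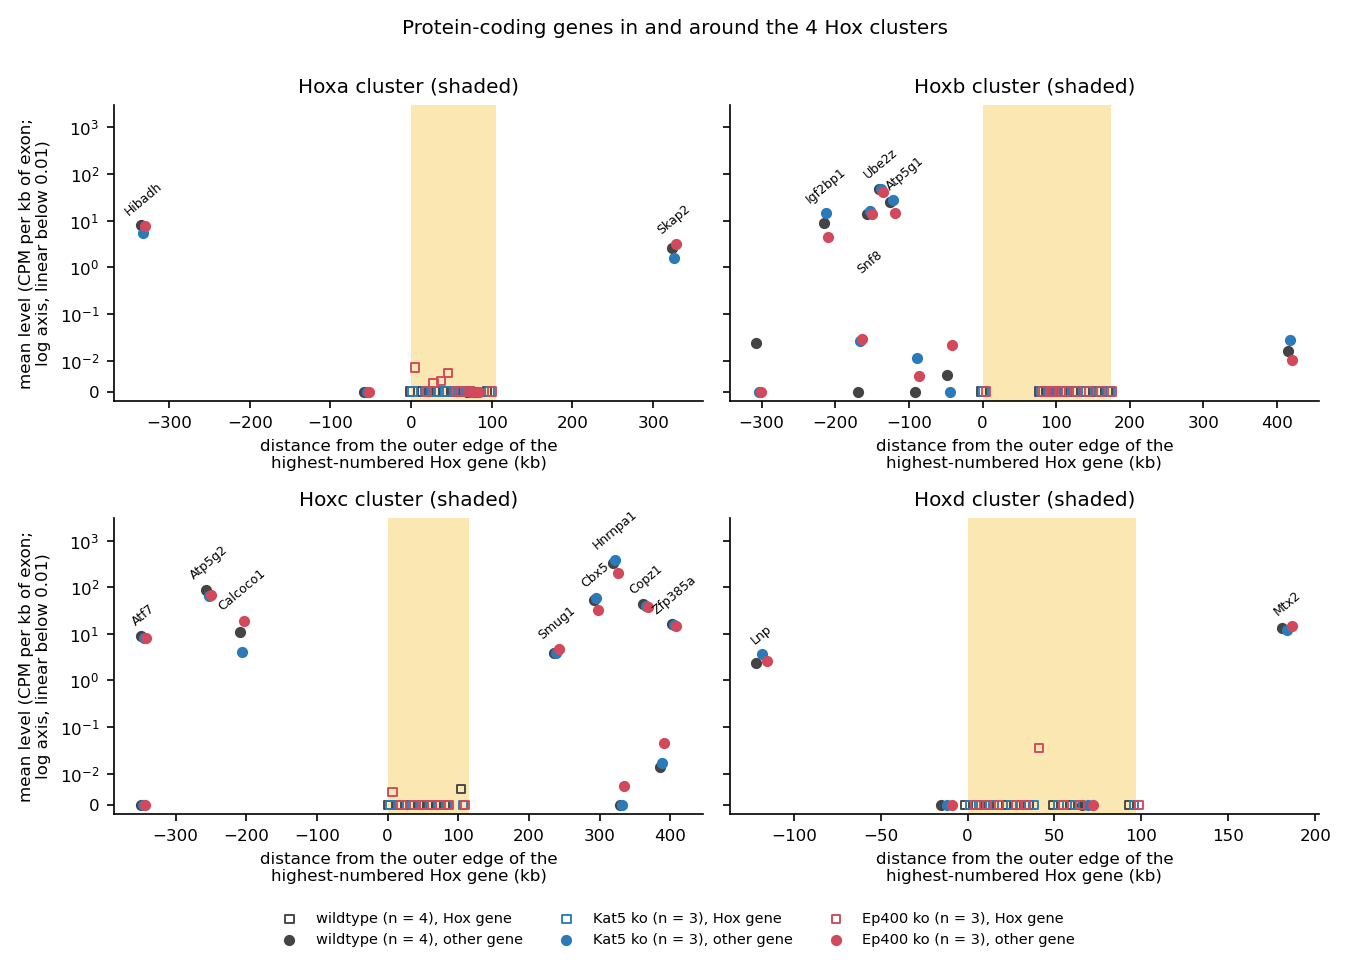
Mean level of protein-coding genes (CPM per kb of exon, log axis that is linear below 0.01) in wildtype, Kat5 ko and Ep400 ko libraries against the distance in kb from the outer edge of the highest-numbered Hox gene, with each cluster shaded and groups shifted sideways by 3 kb. Hox genes (squares) stay at or near 0 in all groups, while 16 of 26 genes outside the clusters (filled circles) are expressed.

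Genes listed as flanking the clusters passed the test about as often as genes in general. None of 27 tested genes of the longer list of flanking genes passed the test for Kat5 ko against wildtype, beside 0.499% of all genes. Their median log2-fold change was −0.01 beside 3.24e-05 over all genes tested. In Ep400 ko clones, 4 of 27 (14.8%) passed against wildtype beside 13.9% of all genes tested. Of these, 1 rose and 3 fell, and the median was −0.22 beside 0.04 over all genes. *Nfe2l2*, a regulator of the oxidative stress response, lies more than 300 kb from any Hox cluster. It rose from 210 ± 24.4 (SD, n = 4) to 389 ± 31.3 CPM (SD, n = 3), a log2-fold change of 0.87 (standard error 0.16, edgeR adjusted p = 0.0116). *Cbx5*, which codes for heterochromatin protein HP1 alpha, lies 155 kb from HoxC. It fell by 0.78 on the log2 scale (standard error 0.19, edgeR adjusted p = 0.0292). Its neighbor *Hnrnpa1*, an RNA-binding protein gene, fell by 0.75 (standard error 0.20, edgeR adjusted p = 0.0417) and *Atp5g1*, a gene for an ATP synthase subunit near HoxB, by 0.76 (standard error 0.18, edgeR adjusted p = 0.0286). Between the ko groups, *Nfe2l2* (log2-fold change 1.03, edgeR adjusted p = 0.0414) and *Calcoco1* (2.10, edgeR adjusted p = 0.0455) were higher in Ep400 ko clones.

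As to sequence, RefSeq promoters were on hand for 22 of 38 Hox genes. Of these, 9 (40.9%) were rich in CpG, with at least 50% G and C and a ratio of observed to expected CpG of at least 0.6, against 8390 of 19021 promoters (44.1%) of all genes matched. The count depends on the limit, as *Hoxa10* and *Hoxb4*, both with over 50% G and C, had ratios of 0.596 and 0.593. The lowest ratio among those counted as rich was 0.657 (*Hoxa3*). Hox promoters ranged from a ratio of 0.257 (*Hoxd11*) to 1.02 (*Hoxa5*). In the sequences above, it was 0.589 for *Hoxa2*, 0.805 for *Hoxd1*, 0.367 for *Hoxd8* and 0.898 for *Dlx2*. *Hoxd1* and *Dlx2* have 29 CpG each in their 300 bases, but *Hoxd1* had 0 reads in every library and *Dlx2* a mean of 20.5 CPM in wildtype cells. Among CpG-rich promoters of all genes, 77.5% belonged to genes expressed in wildtype cells and 11.8% (993 genes) to silent ones. All 9 CpG-rich Hox promoters belonged to the latter, which follows from all 38 Hox genes reported being silent in wildtype cells.

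**Figure D3:**
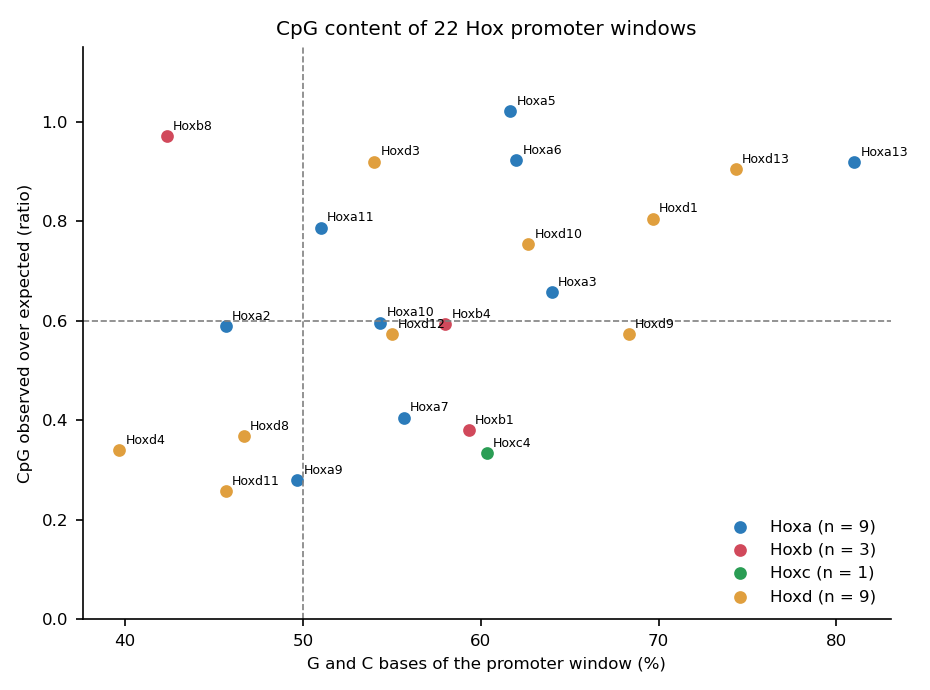
Ratio of observed to expected CpG against the percentage of G and C bases in the promoter windows of 22 Hox genes, coloured by cluster, with dashed lines at the limits of 0.6 and 50%. The 9 genes in the upper right field count as rich in CpG, and *Hoxa5* has the highest ratio at 1.02.

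The partners and regulators of Hox genes, other than the Hox genes themselves, were largely present. Of 9 TALE homeobox genes, whose products bind DNA together with Hox proteins, 6 were expressed in wildtype cells, and all 49 Polycomb and Trithorax genes looked up had between 7.10 and 487 CPM in every library. *Ezh2*, the methyltransferase of Polycomb repressive complex 2, was at 94.8 ± 10.4 CPM (SD, n = 4) in wildtype, 106 ± 14.2 (SD, n = 3) in Kat5 ko and 73.3 ± 16.2 (SD, n = 3) in Ep400 ko libraries. None of the 12 genes of this complex passed the test in any comparison. Of all genes tested, 0.499% passed for Kat5 ko against wildtype, 13.9% for Ep400 ko against wildtype and 7.32% between the ko groups. For Ep400 ko against wildtype, 1 of 22 genes of Polycomb repressive complex 1 rose and 3 fell (18.2% in all, median 0.04), and 1 of 15 Trithorax and KMT2 genes fell (6.67%, median −0.18). With 13.9% of all genes past the test and a median of 0.04, these counts do not set either group apart. The ubiquitin ligase gene *Ring1* rose by 0.84 on the log2 scale (edgeR adjusted p = 0.0251), and *Bcorl1*, *Bcor* and *Cbx2* decreased by 0.72, 0.67 and 0.59 (edgeR adjusted p = 0.0238, 0.0450 and 0.0415). *Psip1*, which tethers KMT2 complexes to chromatin, decreased by 0.68 (edgeR adjusted p = 0.0253).

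Of 19 retinoic acid genes looked up, 11 were expressed in wildtype cells, among them the receptor gene *Rarg* at 320 ± 43.0 CPM (SD, n = 4) and *Crabp1*, which codes for a cytoplasmic carrier of retinoic acid, at 3004 ± 780 (SD, n = 4). *Rarb*, itself a known target of retinoic acid, had no read in wildtype samples or Kat5 ko clones. In none of these lists did a gene pass the test for Kat5 ko against wildtype, beside 0.499% of all genes tested. With so low a share, the lack of calls does not set these lists apart from other genes. For Ep400 ko against wildtype, members of the lists were counted only if they had at least 10 reads in at least 3 wildtype samples, since a gene that is read in ko clones alone enters the test through the difference itself. By this limit, which was set after the data had been seen, 6.76% of 13080 genes rose and 6.09% fell (median 0.01). The limit looks at wildtype reads alone. It lowered the number of rising genes from 1120 to 884 and left 797 falling ones as before. A gene read in wildtype samples alone can thus still enter through the difference. Of 14 retinoic acid genes, 6 rose and 0 fell (median 0.64), and of 7 TALE genes 1 rose and 0 fell (median −0.05). *Aldh1a1* and *Rdh10*, both enzymes of retinoic acid synthesis, rose by 3.42 and 2.17 on the log2 scale (edgeR adjusted p = 0.0068 and 0.0136), and *Cyp26b1*, which degrades retinoic acid, by 2.09 (edgeR adjusted p = 0.0241). *Cyp26b1* was at 55.1 to 259 CPM in wildtype samples and at 458 to 697 in Ep400 ko clones, without overlap. *Dhrs3*, which turns retinal back into retinol, rose by 1.72 (edgeR adjusted p = 0.0173). Among TALE genes, *Meis2* rose by 0.62 (edgeR adjusted p = 0.0387). *Pknox2* and *Meis3* were below the limit in wildtype samples and are given as reads. *Pknox2* had 0 to 2 reads in wildtype samples and 13, 18 and 65 in Ep400/1, Ep400/2 and Ep400/3, and *Meis3* had 0 to 13 and 195, 16 and 169. Among other Hox regulators, 1 of 9 genes rose (median 0.09), namely *Zfp503* by 1.90 (edgeR adjusted p = 0.0047). *Egr2*, which activates Hox genes in the hindbrain, had 3 to 7 reads in wildtype samples and 86, 24 and 14 in the Ep400 ko clones.

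Of 14 homeobox and other genes of the anterior head, 4 were expressed in wildtype cells, namely *Dlx1*, *Dlx2*, *Lhx6* and *Lhx8*, so that homeobox transcripts outside the clusters were counted in the same libraries. In Ep400 ko clones, 2 of 5 with enough wildtype reads rose against wildtype (median 0.76). *Dlx5*, a homeobox gene of the lower jaw, was silent in wildtype cells and had 0.340, 0.938 and 1.25 CPM in Ep400/1, Ep400/2 and Ep400/3. As it had 1 read in all wildtype samples, no fold change is given. *Lhx8* and *Dlx1* rose by 1.07 and 0.67 (edgeR adjusted p = 0.0130 and 0.0427). Other markers moved in these clones as well. By the limit on wildtype reads, 2 of 9 neural crest and 1 of 3 neuronal markers rose, beside 6.76% of all genes. *Tfap2a* and *Snai2* of the neural crest and the neuronal *Tubb3* rose by 1.37, 0.86 and 1.83 (edgeR adjusted p = 0.0223, 0.0451 and 0.0375). Of 3 epithelial markers 2 fell, as did the 1 endothelial marker tested, beside 6.09% of all genes. *Krt8* and *Krt18* of epithelium and *Pecam1* of endothelium fell from at most 2.14, 2.83 and 1.61 CPM in wildtype samples to at most 0.488, 0.0543 and 0.298 in Ep400 ko clones. The limit does not remove genes with few reads in ko clones, so that no p-value is given for these. The part of other cell types in the changes above was not tested. Between the ko groups, *Crabp1*, *Cyp26b1*, *Rdh10*, *Rarg* and *Ring1* were higher in Ep400 ko clones and *Bmi1* and *Cbx2* lower (edgeR adjusted p = 0.0233 to 0.0489). *Pknox2* and *Dlx5* were also called higher, but entered that test through the Ep400 ko clones alone, so that their calls are no support. Each of the 11 genes named for this comparison lost the call in at least 4 of 6 fits with 1 library left out. For Ep400 ko against wildtype, 21 genes past the test were followed through fits with 1 of 7 libraries left out. The cell type markers above were not among them. Of the 21, 7 kept the call in every such fit, namely *Aldh1a1*, *Rdh10*, *Zfp503*, *Lhx8* and *Nfe2l2*, besides *Pknox2* and *Dlx5*. As *Pknox2* and *Dlx5* entered the test through the Ep400 ko clones alone, their calls are no support. The other 14 lost the call in at least 2 of 7 such fits, with edgeR adjusted p up to 0.120. Among them, *Meis2*, *Bcor*, *Cbx2* and *Dlx1* kept it in only 1 of 7. In a single fit of all libraries, 9 of 21 lost the call, among them *Aldh1a1*, *Zfp503* and *Lhx8* (edgeR adjusted p = 0.0618, 0.0570 and 0.139).

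**Figure D4:**
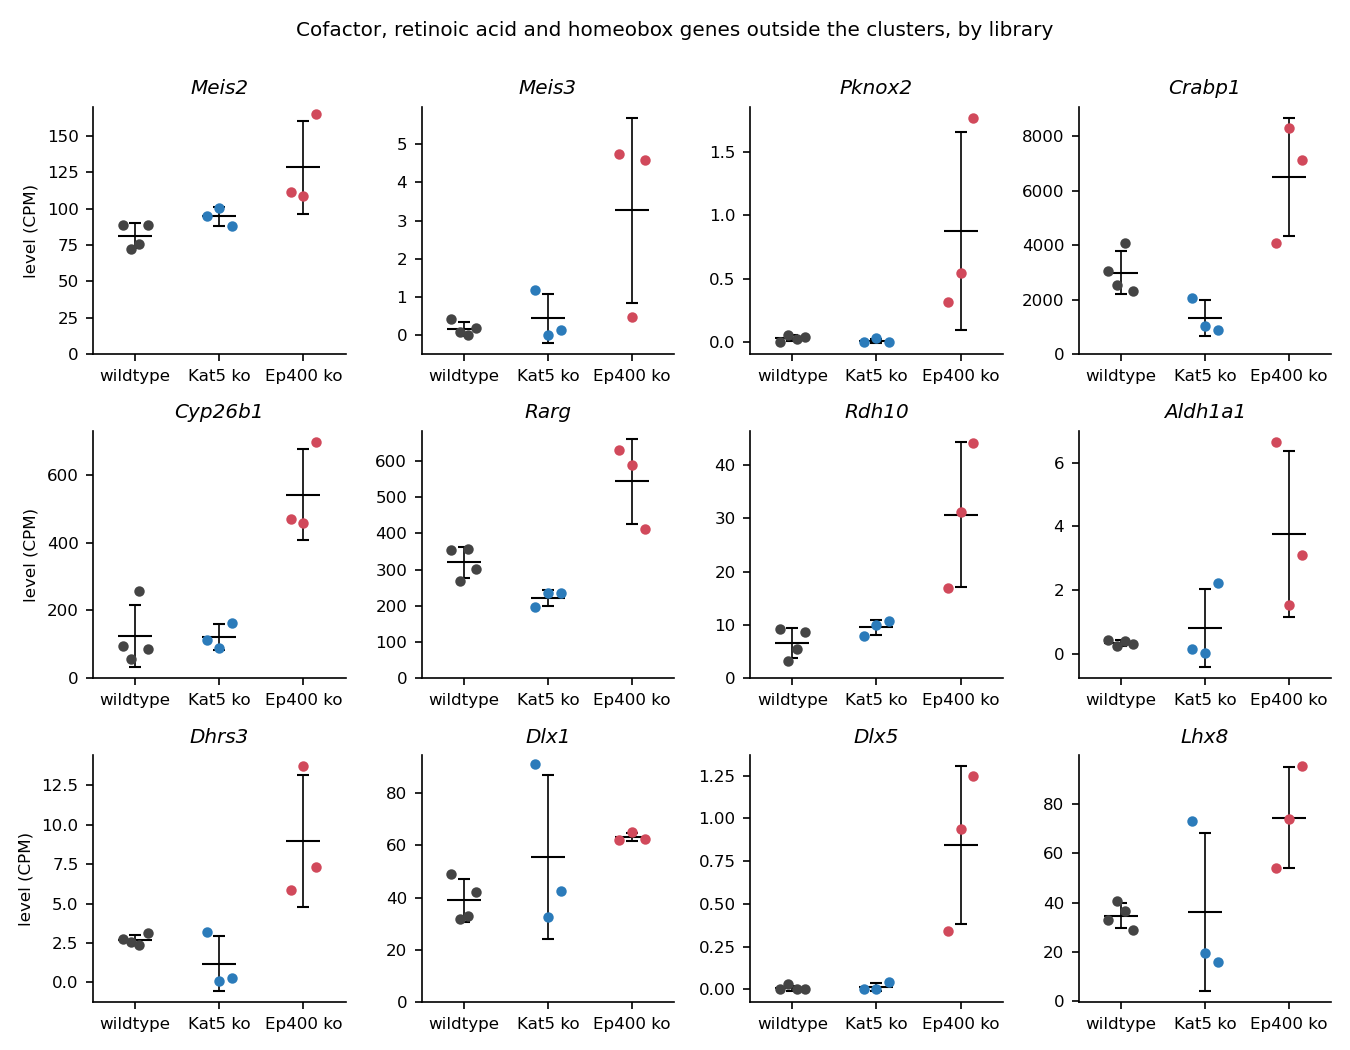
Level in CPM of 12 genes outside the Hox clusters in each library (points), with mean and SD (bars), in wildtype (n = 4), Kat5 ko (n = 3) and Ep400 ko (n = 3) libraries. *Dlx5* lies between 0.340 and 1.25 CPM in the Ep400 ko clones and at or near 0 elsewhere, and *Cyp26b1* between 458 and 697 CPM, above the wildtype samples.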

How the data were processed

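RNA of 10 O9-1 samples was prepared by the authors with a stranded poly-A kit and sequenced as paired reads. According to the submitters' processing notes, bcl2fastq 2.20, STAR 2.7.3, DESeq2 1.36.0 and R 4.2.1 were used with mm10. How reads were counted, and with which annotation, is not given in the sources used here. The deposited raw counts are whole numbers of reads per gene. The normalized tables, as deposited, hold signal values that the authors obtained by dividing each raw count by 1 factor per library. These tables list 15803 (Kat5) and 16309 (Ep400) genes without any Hox gene and were used for this check only.

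CPM was computed on the total of 30968945 to 48301792 counts per library, where 3 counts were taken as detection limit. Each comparison was fitted separately with edgeR 4.0.16 in R 4.3.3 (filterByExpr, TMM, quasi-likelihood test, Benjamini-Hochberg adjustment over all genes tested), with DESeq2 1.42.0 as an alternative. Other alternatives were normalizations, no filter, a single fit, a replicate block, other CPM limits and each library left out. Replicates differed by more than sampling noise. The procedure was tested on simulated data. Coordinates are from GENCODE M21 on GRCm38, which is mm10, and 42462 of 43346 genes matched. Promoter windows are from RefSeq (GRCm38.p6).

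The Hox genes and the lists of other genes were chosen with earlier results of these data known. 1 Hox gene and 2 genes of the lists are not reported here. All other Hox genes are accounted for, and up to 4 genes per list with the largest change past the test are named. No symbol was found for 3 non-coding genes of the lists.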

Additional observations from a re-analysis of the deposited data

Results flagged for a closer look

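A wildtype library was flagged as far from the other 3 in 2 cases. *Hoxc4* had 2 reads in sample 3, with 0 in the others. *Dlx5* had 0.0293 CPM in 1 wildtype library and 0 in the others. With 0 in the other 3 libraries, any read at all is flagged, so that these 2 flags carry no weight. The rule's chance rate of about 1 in 20 does not hold for such counts.

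The 2 ko groups differed from each other for 9 genes named in a comparison with wildtype, by edgeR's quasi-likelihood test of Ep400 ko against Kat5 ko at an adjusted p of at most 0.05. The targeted genes were among them, with *Kat5* at a log2-fold change of 1.74 and *Ep400* at −1.65. *Pknox2* (6.04), *Dlx5* (5.30), *Cyp26b1* (2.02), *Rdh10* (1.54), *Ring1* (1.23) and *Nfe2l2* (1.03) were higher in Ep400 ko clones, where the values of *Pknox2* and *Dlx5* are fitted against at most 2 reads per Kat5 ko library and are no measure of size, and *Cbx2* (−0.99) was lower. No reported Hox gene was among them.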

How the results depend on the processing

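The classes of the 38 Hox genes changed in 1 respect. With limits of 0.5 and 0.05 CPM, 37 instead of 38 were silent in wildtype cells, as *Hoxc4* had 0.0525 CPM in sample 3. With these limits, with limits of 2 and 0.2 CPM, with TMM library sizes and with each of 10 libraries left out, 0 Hox genes were expressed in wildtype cells and 0 opened or closed in either ko. Fits with other normalizations, in a single fit, with a replicate block or with 1 library left out held 0 Hox genes after the filter and DESeq2 gave them no adjusted p, so that these fits say nothing about Hox genes. Without the filter, 0 Hox genes were past the test. A log2-fold change of a Hox gene is not given, as none passed the filter on low counts.

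The number of all genes past the test, which is the background, did change. It was 67 for Kat5 ko against wildtype, but 1382 with DESeq2, 245 without the filter, 26 in a single fit of all libraries and 1 to 2651 with 1 library left out (2651 without Kat5/1, 1 without wildtype sample 1). For Ep400 ko against wildtype, it was 1917, but 3175 with DESeq2, 1273 in a single fit and 826 to 2016 with 1 library left out. Between the ko groups, it was 994, but 3039 with DESeq2, 1803 without the filter, 3539 in a single fit and 4 to 2537 with 1 library left out (4 without Ep400/3). The cause was not tested.

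Same-numbered libraries share only a number, as the correlations of their residuals were −0.10 to 0.22. With a replicate block, the comparisons with wildtype leave out wildtype sample 4, which has no same-numbered clone. In the block fits, 0, 173 and 213 genes were past the test for Kat5 ko against wildtype, Ep400 ko against wildtype and Ep400 ko against Kat5 ko. Of the genes followed above, 21 of 21 in the second and 10 of 11 in the third comparison were not past it (edgeR adjusted p up to 0.137). With DESeq2, all of these were past the test. *Ep400* in Kat5 ko clones, which was not past the test, had a log2-fold change between −0.043 and 0.28 with 1 library left out, with the negative value without Kat5/2.

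Depth limits what can be said of single reads, as 3 counts equal 0.0621 to 0.0969 CPM per library, and no library with known Hox expression was at hand for comparison.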
